A study of Mus musculus with 4 samples.

Results

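The genes described here are the matrix proteases and their inhibitors: all genes whose symbol in the platform annotation is Mmp, Timp or Adamts followed by a digit, together with Plau, Plaur, Plat and Prss23, taken from probe sets that carry a single symbol. The rule found 41 genes of the 18193 named on the array, measured by 78 probe sets. They comprise 18 Mmp, 4 Timp and 15 Adamts genes and the 4 serine protease system genes. RNA came from Kupffer cells, which are macrophages that live in the sinusoids of the liver, and from SL4, a line of mouse colon carcinoma cells. The Kupffer cells were sorted as CD45+ CD11b+ F4/80+ cells from naïve female C57BL/6 mice of 12 weeks that were wild-type or Clec4n-/-, that is, without the pattern receptor Dectin-2, and the SL4 cells, also of C57BL/6 background, were the same line in all groups. Each of the 4 groups combined 100000 Kupffer cells with 100000 SL4 cells, and cells were cultured for 8 hours in co-culture or separately. For the separate cultures the 2 RNAs were mixed before hybridization, so each array measured Kupffer and SL4 transcripts together, and which of them a transcript came from cannot be told apart. Each group had 1 array: wild-type separate, knockout separate, wild-type co-culture and knockout co-culture.

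Matrix metalloproteinases (Mmp) are zinc enzymes, secreted or anchored in the membrane, that cut collagens, laminins and other proteins around cells, and most are made as inactive precursors. The Adamts enzymes are secreted relatives that cut proteoglycans such as aggrecan and versican or process procollagens, and the Timp proteins bind and block the active sites of both families to different degrees. In the plasminogen system, urokinase (Plau) and tissue plasminogen activator (Plat) turn plasminogen into plasmin, and Plaur, the urokinase receptor, holds urokinase at the cell surface. In tumours, these genes are known for remodelling matrix during invasion and are made by carcinoma cells, stromal cells and macrophages alike.

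The arrays were close in scale, with median signals from 72.5 to 78.4 and between 10117 and 10187 genes above a floor of 76.1, the median of all deposited signals. Signals at or under the floor were treated as not measured. Labelled cell types were only in part borne out by defining markers. Of 24 macrophage and Kupffer cell genes, 12 exceeded the floor on some array, among them Csf1r, the receptor of macrophage growth factor, at 120 to 138, while Adgre1, which encodes F4/80, reached no more than 35.8 and Clec4f, a Kupffer cell lectin, no more than 58.0. Of 19 epithelial and colon carcinoma genes, 3 lay above it in any array, among them Spint1 at 667 to 869, while Cdh1 (E-cadherin) reached only 11.7. Of 18 mesenchymal genes, 14 lay above it in some array. Vim (vimentin), a filament protein, read between 12614 and 16128, while Col1a1, a collagen chain, reached no more than 32.6. Of 12 neutrophil genes, 0 lay above the floor in any array, with S100a8 and S100a9 at no more than 29.7 and 23.9. Fewer cells of a type and less RNA per cell cannot be told apart in such mixtures.

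Of the 41 genes, 15 lay above the floor in all 4 arrays, 2 in only 1 array and 24 in none. The 24 had signals between 0.287 and 74.3. The 15 are Timp1, Timp2, Mmp11, Mmp14, Mmp16, Mmp23, Mmp24, Adamts1, Adamts4, Adamts7, Adamts10, Plau, Plat, Plaur and Prss23, and they are also the 15 genes that entered the fit of the culture effect. Adamts5 and Adamts16 exceeded the floor only in the co-culture of wild-type cells. Signals of different probe sets depend on their sequences, so the levels of different genes are not ranked here.

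**Figure D1:**
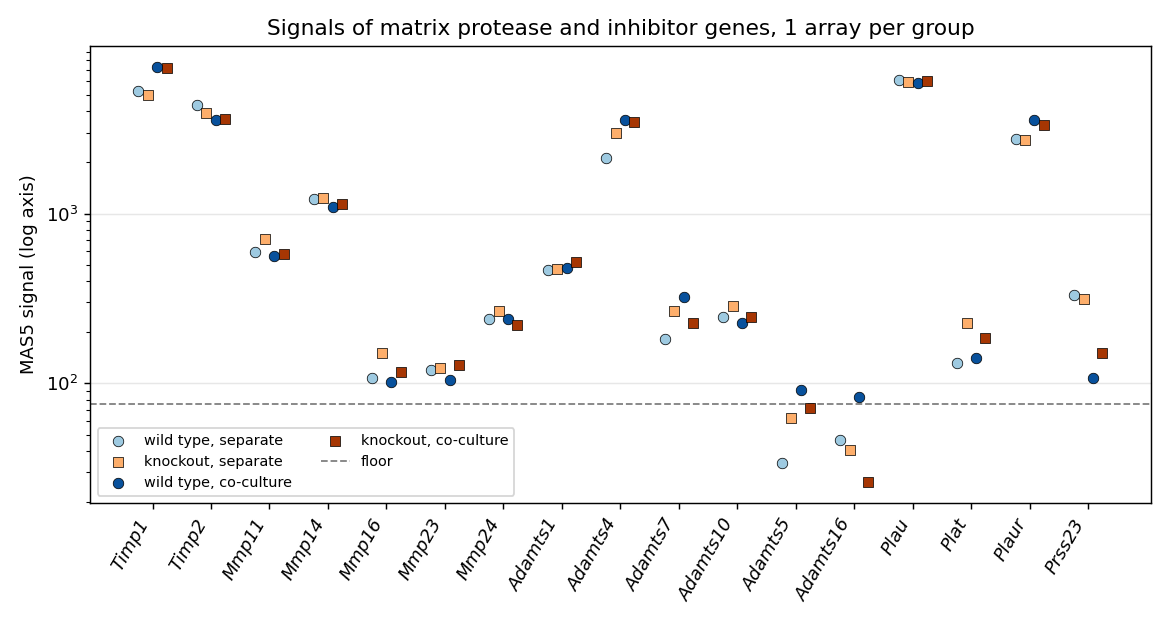
MAS5 signal on a log axis of the 17 genes that exceeded the floor on some array, with 1 point per array and the floor of 76.1 as a dashed line. Both co-culture arrays lie above both separate arrays for Timp1, Adamts4, Plaur, Adamts1 and Adamts5, the last mostly under the floor. They lie below them for Timp2, Prss23, Mmp11, Mmp14 and Adamts10, while the 4 points of Plau almost coincide.

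Co-culture against separate culture asked how the transcripts differ when the Kupffer cells and the tumour cells are cultured together. Timp1, the urokinase receptor gene Plaur and the aggrecanase gene Adamts4 rose in co-culture by 1.42-fold, 1.26-fold and 1.39-fold, and Prss23, a secreted serine protease, fell to a level 2.53-fold lower. These are estimates of the limma fit over the 4 arrays with the genotypes as a block. In that fit 3 of the 15 genes rose and 1 fell at an adjusted p below 0.05, where 3.39% of all 10130 genes rose and 5.57% fell. The members were chosen with earlier results of these data known, so the difference from these shares is only described. The other 11 did not pass, with adjusted p between 0.070 and 0.961 in the limma fit. The median log2 change was -0.10 over the 15 genes and -0.01 over all genes fitted.

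Every change that passed, other than that of Prss23, was smaller than 2-fold. Taken within a genotype, where 1 array is compared with 1 array and no test is possible, Prss23 was the only one of the genes above the floor that differed 2-fold in wild type (0 of 17 higher, 1 lower) and in knockout (0 of 15 higher, 1 lower). Among all genes 0.701% were 2-fold higher and 0.538% lower in wild type, and 0.67% higher and 0.574% lower in knockout. Of the 15 genes, 4 had a higher signal in co-culture in both genotypes, 6 had a lower one in both and 5 went in opposite directions. These are 26.7%, 40% and 33.3% of the 15, against 28.3% higher and 35.1% lower in both among all genes fitted, so the shares are near the background. How many of all genes had no overlap between the cultures was not counted, so a lack of overlap in a gene below is only described. The fit rests on 1 residual degree of freedom and on the spread it borrows from genes of like signal: without an intensity trend in that borrowing, 0 of the 15 genes passed, and the limma adjusted p of Prss23, Timp1, Plaur and Adamts4 was 0.082, 0.11, 0.20 and 0.25.

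**Figure D2:**
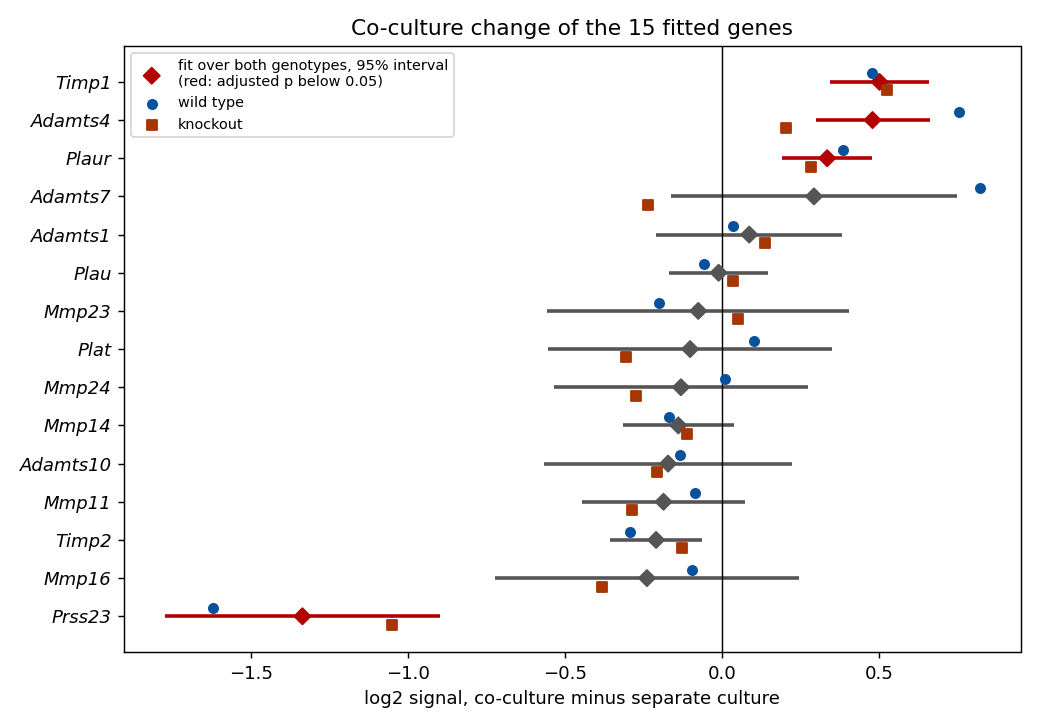
Co-culture minus separate culture, as log2 signal, for the 15 fitted genes. Diamonds with lines are the fit over both genotypes with its 95% interval, red where the adjusted p is below 0.05, and circles and squares are the single ratios in wild type and knockout. The circle and square of Timp1 nearly coincide, at 0.48 and 0.53, and those of Adamts7 lie on opposite sides of 0, at 0.82 and -0.23.

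Among the inhibitors, Timp1, a secreted inhibitor of most metalloproteinases, had separate-culture signals of 5259 in wild type and 4963 in knockout. In co-culture it read 7324 in wild type and 7151 in knockout. Both co-culture arrays stood above both separate ones, and the genotypes lay close together within each culture. Wild type differed 1.39-fold and knockout 1.44-fold between cultures, and the fit gave a log2 change of 0.50 ± 0.08 (SE), with a limma adjusted p of 5.5e-05, the 129th smallest p of the 10130 genes.

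Timp2, which inhibits metalloproteinases and also takes part in activating pro-Mmp2 with Mmp14, went the other way without passing the test in its brightest probe set. That probe set read 4377 in wild type and 3937 in knockout in separate culture, and 3572 and 3608 in co-culture. The cultures did not overlap, but the log2 change of -0.21 ± 0.07 (SE) had a limma adjusted p of 0.070. Timp2 is the best covered of these genes, with 6 probe sets above the floor in all arrays, and all 6 had lower signals in co-culture in both genotypes. When every probe set was fitted as its own feature, 3 of the 6 passed, with log2 changes of -0.37, -0.31 and -0.38 and limma adjusted p of 0.00026, 0.0038 and 0.0029. The probe sets of Timp2 measure the same RNA on the same arrays and are not replicates. The counts over all probe sets in that fit are given with the processing alternatives. Taking the median over probe sets, Timp2 fell by 0.34 on the log2 scale with a limma adjusted p of 0.0048.

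The other 2 inhibitors were not measured. Over all their probe sets, Timp3, a matrix-bound inhibitor, reached no more than 59.9 and Timp4 no more than 23.1.

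The stretches of 250 bases before the RefSeq transcription starts of both inhibitor genes are shown because the signals of the 2 genes went in opposite directions. They are from build GRCm38.p6, on the plus strand of chromosome X for Timp1 (chrX:20869916-20870165) and on the minus strand of chromosome 11 for Timp2 (chr11:118355412-118355661). Capitals mark the Sp1 letters GGGCGG or their complement.
Timp1: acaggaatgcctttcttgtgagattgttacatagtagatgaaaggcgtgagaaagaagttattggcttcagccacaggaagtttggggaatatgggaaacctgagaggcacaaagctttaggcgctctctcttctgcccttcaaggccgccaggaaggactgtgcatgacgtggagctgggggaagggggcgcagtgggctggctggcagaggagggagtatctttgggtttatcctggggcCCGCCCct
Timp2: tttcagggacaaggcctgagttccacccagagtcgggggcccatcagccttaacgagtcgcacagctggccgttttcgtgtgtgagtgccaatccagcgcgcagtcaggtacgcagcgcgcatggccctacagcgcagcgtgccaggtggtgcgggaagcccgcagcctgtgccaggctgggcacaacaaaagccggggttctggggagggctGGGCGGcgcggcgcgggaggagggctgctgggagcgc
Each window holds the Sp1 letters at 1 place, which begins 8 bases before the start in Timp1 and 37 bases before it in Timp2. The Timp1 window also holds the ETS letters AGGAAG at 2 places, beginning 175 and 99 bases before the start, and the TEAD letters GGAATG at 1, beginning 247 bases before it, and Timp2 holds neither. Among all 32851 windows of this length, 32.7% hold the Sp1 letters and 29.5% the ETS letters on either strand. A match is a description of the sequence and no evidence of binding.

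In the plasminogen system the receptor gene rose and the gene of its ligand did not pass the test. Plaur read 2732 in wild type and 2712 in knockout in separate culture, and 3574 and 3301 in co-culture. Its single probe set was higher in both co-culture arrays, 1.31-fold for wild type and 1.22-fold for knockout. The fit gave a log2 change of 0.34 ± 0.07 (SE) with a limma adjusted p of 0.0019. With the arrays centred on a common median this change was 0.26, with a limma adjusted p of 0.053.

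Plau, the urokinase gene, had signals of 6126 and 5923 in separate culture and 5893 and 6069 in co-culture, in wild type and knockout. The 4 arrays overlapped, and its log2 change was -0.01 with a 95% interval from -0.17 to 0.15. A second probe set of Plau read 2813 and 2716 in separate culture and 2955 and 3015 in co-culture, with a log2 change of 0.11 ± 0.07 (SE) and a limma adjusted p of 0.42 in the fit over probe sets. Plat, the tissue plasminogen activator gene, was lower in both wild-type arrays than in both knockout arrays. Its signals were 131 and 227 in separate culture and 141 and 184 in co-culture, and its culture change of -0.10 ± 0.22 (SE, log2) did not pass (limma adjusted p = 0.84).

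The 250 bases before the start of Plaur, on the plus strand of chromosome 7 (chr7:24462233-24462482, GRCm38.p6), are shown because this is the window of a risen gene that holds the AP-1 letters TGANTCA, with N for any base. Capitals mark these letters and the Sp1 letters.
Plaur: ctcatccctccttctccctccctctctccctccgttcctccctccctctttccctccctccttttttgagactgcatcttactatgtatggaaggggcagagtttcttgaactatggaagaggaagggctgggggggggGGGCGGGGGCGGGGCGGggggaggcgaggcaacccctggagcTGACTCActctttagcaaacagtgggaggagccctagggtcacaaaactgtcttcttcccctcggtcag
The AP-1 letters begin 69 bases before the start, and the Sp1 letters occur at 3 adjoining places that begin 111, 105 and 100 bases before it. The ETS letters begin 130 bases before it. Promoter windows were at hand for 25 of the 41 genes.

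Prss23 had the largest change of the 15 genes. Its brightest probe set read 332 in wild type and 315 in knockout in separate culture, and 108 and 152 in co-culture. The cultures were far apart relative to the genotypes, by 3.08-fold for wild type and 2.07-fold for knockout. The log2 change was -1.34 ± 0.21 (SE) with a limma adjusted p of 0.00011. A second probe set read 164 and 153 in separate culture against 80.9 and 61.2 in co-culture, the last under the floor, and fell by 1.02 on the log2 scale with a limma adjusted p of 0.0034 in the fit over probe sets. The third probe set lay under the floor throughout. RefSeq lists 7 starts for Prss23, and the arrays do not tell which of them was used.

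**Figure D3:**
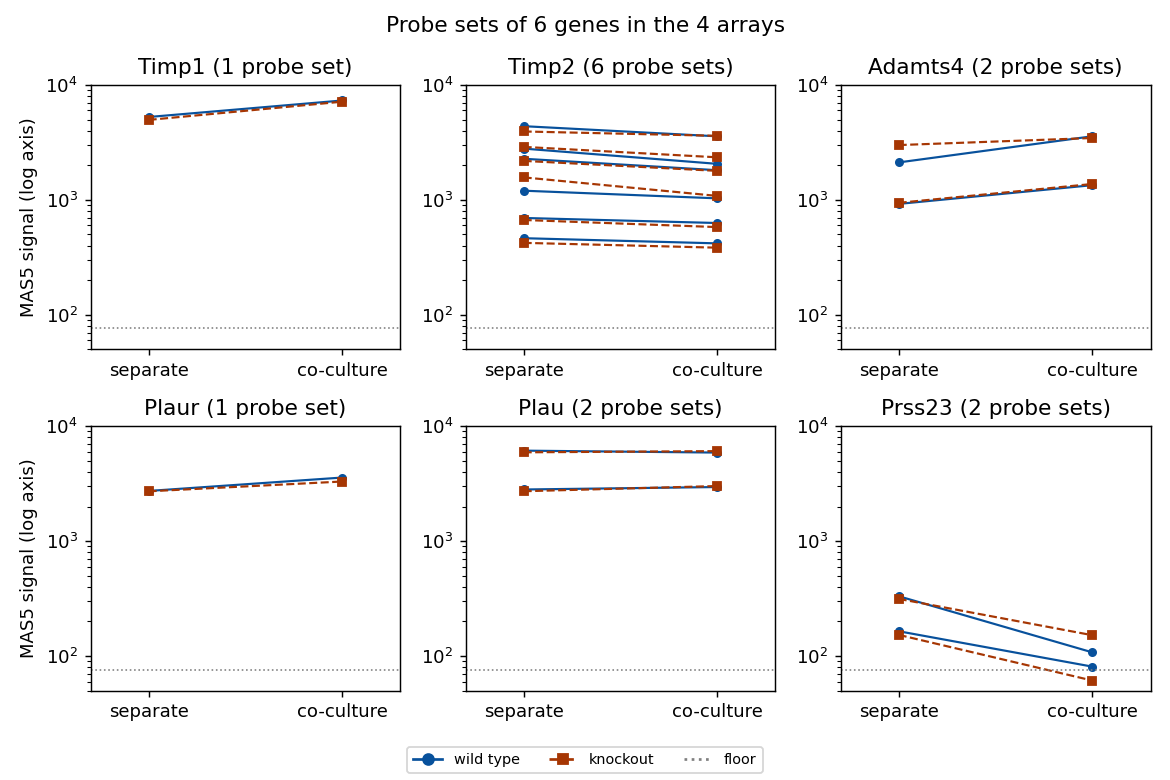
MAS5 signal on a log axis in separate culture and co-culture of the probe sets above the floor in at least 3 arrays, for 6 genes, with wild type as solid and knockout as dashed lines and the floor dotted. All 6 pairs of lines for Timp2 slope down, both of Adamts4 slope up, and those of Prss23 fall towards or below the floor.

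Of the 18 metalloproteinase genes, 5 could be measured and none passed the test: 0 rose and 0 fell in the limma fit. Among all genes 3.39% rose and 5.57% fell, so 0 of 5 is near the background. Mmp14, the membrane-type enzyme that activates pro-Mmp2 and cuts fibrillar collagen, read 1225 and 1228 in separate culture and 1090 and 1138 in co-culture. Its culture change was -0.14 with a 95% interval from -0.32 to 0.04 (log2), and its other 2 probe sets changed by -0.03 and -0.16. Mmp11, or stromelysin 3, read 596 and 707 in separate culture and 562 and 579 in co-culture, a change of -0.19 ± 0.13 (SE, log2). The cultures of both genes did not overlap, but the differences were within the error of the fit (limma adjusted p = 0.38 and 0.44).

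The signals of the other 3 measured enzymes lay closer to the floor. Mmp16 read 108 and 152 in separate culture and 101 and 116 in co-culture. All 3 of its probe sets that were above the floor in every array had lower signals in co-culture in both genotypes, with changes from -0.54 to -0.24 (log2), of which 0 passed in the fit over probe sets. Mmp24 read 239 and 266 in separate culture and 241 and 220 in co-culture, and Mmp23 121 and 124 against 105 and 128. Both overlapped between cultures, and their log2 changes were -0.13 ± 0.20 and -0.08 ± 0.23 (SE). The change of Mmp23 turned to 0.14 when the median over its probe sets was taken.

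None of the gelatinase and collagenase genes was measured. Mmp9, the gelatinase of leukocytes and invading cells, read 3.52 and 12.2 in separate culture and 41.6 and 38.2 in co-culture, and its second probe set 1.83 and 2.95 against 14.5 and 8.89. Both probe sets read higher in both co-culture arrays, but all values lay under the floor and no fold is given. Mmp10, or stromelysin 2, showed the same pattern, with 11.0 and 23.5 in separate culture against 59.8 and 40.7 in co-culture. Mmp2, the other gelatinase, read between 23.8 and 50.6 without passing the floor.

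A run of 10 neighbouring protein-coding genes on chromosome 9 consists of Mmp genes alone in the RefSeq order, and 9 of them, Mmp13, Mmp12, Mmp1b, Mmp3, Mmp1a, Mmp10, Mmp8, Mmp20 and Mmp7, are among the 41. It holds collagenases, stromelysins and matrilysin, but not all the genes with such names. Of these 9 genes, 0 lay above the floor in any array, and 59.8 for Mmp10 was the highest signal. Of the 9 Mmp genes that lie elsewhere, 5 lay above it in all arrays, among them the stromelysin gene Mmp11 on chromosome 10.

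The starts of this run share a sequence feature that the selection by name did not use. The AP-1 letters TGANTCA occur in the 250 bases before the start in 8 of the 9 genes, all but Mmp8. Mmp12 and Mmp7 have 2 listed starts each, and the letters precede only 1 of the 2 in this window. Among the 25 genes with a window, 10 hold these letters, the other 2 being Plaur and Prss23, which is 40% of them against 7.82% of all 27025 genes with a window. Prss23 has 7 listed starts, and the letters lie at a single site in overlapping windows, 146 and 169 bases before their starts. The windows of its other starts do not hold them. Neighbouring Mmp genes arose by duplication and are not independent. The windows of Mmp3 (chr9:7445572-7445821) and Mmp10 (chr9:7502092-7502341), both on the plus strand in GRCm38.p6, are shown with the AP-1 letters in capitals, because they hold the same letters as Plaur while their signals lay under the floor.
Mmp3: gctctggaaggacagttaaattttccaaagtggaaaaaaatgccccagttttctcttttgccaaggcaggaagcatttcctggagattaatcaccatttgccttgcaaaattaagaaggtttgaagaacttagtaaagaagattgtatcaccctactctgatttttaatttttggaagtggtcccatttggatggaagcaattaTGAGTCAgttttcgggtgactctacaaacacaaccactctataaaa
Mmp10: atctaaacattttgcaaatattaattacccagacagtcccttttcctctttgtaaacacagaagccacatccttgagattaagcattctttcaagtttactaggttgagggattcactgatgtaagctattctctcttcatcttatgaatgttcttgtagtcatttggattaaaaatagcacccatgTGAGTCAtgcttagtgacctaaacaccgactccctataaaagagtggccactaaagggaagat
The letters begin 46 bases before the start in Mmp3 and 63 bases before it in Mmp10. In all, 6 motifs were searched on both strands, and the others were found as follows: the NF-kappaB motif was found in 3 of the 25 genes (8.23% of all genes), the TEAD letters GGAATG in 1 (14.4%), the AP-1 variant TGAGTAA in 1 (2.58%), the Sp1 letters in 13 (35.4%) and the ETS letters in 12 (32.3%).

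Of the 15 Adamts genes, 4 lay above the floor in all arrays. Adamts4, an enzyme that cuts aggrecan and versican, was the only one that rose. It read 2117 in wild type and 2998 in knockout in separate culture, and 3576 and 3453 in co-culture. Both co-culture arrays were above both separate ones, though the knockout started higher, so that the ratio was 1.69-fold for wild type and 1.15-fold for knockout. The log2 change was 0.48 ± 0.09 (SE) with a limma adjusted p of 0.00055, and of 0.075 without the genotype block. The second probe set read 922 and 943 in separate culture and 1343 and 1375 in co-culture, and its ratio was nearly equal in the genotypes, at 0.54 on the log2 scale in each (limma adjusted p = 1.3e-05 in the fit over probe sets).

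Adamts7, which cuts cartilage oligomeric matrix protein, differed between the genotypes in direction. With wild-type cells it read 182 in separate culture and 322 in co-culture, but with knockout cells 266 and 226, which is 1.77-fold higher and 1.18-fold lower. The difference of the changes, knockout minus wild type, was -1.06 on the log2 scale and could not be tested with 1 array a group. It was the only one of the 17 genes with a difference of 2-fold or more, where 0.432% of all genes lay 2-fold higher and 0.62% lower. Adamts7 has a single probe set, and under quantile normalization and with a common median the difference was -0.96 and -0.98, just short of 2-fold.

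Adamts1, an enzyme with an antiangiogenic function, read 467 and 471 in separate culture and 479 and 518 in co-culture, a change of 0.09 ± 0.14 (SE, log2). Adamts10, a protein of fibrillin microfibrils, read 248 and 284 against 226 and 246, a change of -0.17 ± 0.19 (SE, log2), and its second probe set changed by 0.00. Neither passed the test (limma adjusted p = 0.79 and 0.67). Adamts5, the other main aggrecanase, read 34.1 and 62.5 in separate culture and 92.0 and 71.5 in co-culture, over the floor on the array of co-cultured wild-type cells only. Adamts16 did so too, with 46.3 and 40.5 in separate culture, 83.0 in wild-type co-culture and 26.2 in knockout co-culture. The remaining 9, among them Adamts9 with 74.3 as its highest signal, stayed under the floor.

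None of the 15 genes passed in the fit of knockout over wild type with the cultures as a block. Of the 15, 0 rose and 0 fell at an adjusted p below 0.05 (limma), where 0.247% of all genes rose and 0.326% fell, and 2 had an unadjusted p under 0.05. Those 2 were Plat, with a log2 difference of 0.59 ± 0.22 (SE, limma adjusted p = 0.30), and Adamts4, with 0.23 ± 0.09 (SE, limma adjusted p = 0.33). The difference for Timp1 was -0.06 ± 0.08 and for Prss23 0.21 ± 0.21 (SE, log2).

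Genes of the same pathways were taken from lists made by function, but chosen with earlier results of these data known. Beside the counts in this and the following lists stand the shares over all genes in the fit, 3.39% risen and 5.57% fallen. In the plasminogen system, 16 of 29 genes on the array entered the fit, including Plau, Plaur and Plat. Of the 16, 4 rose, with Plaur from above among them, and 0 fell. Serpinb2, an inhibitor of urokinase that largely stays inside the cell, read 255 and 234 in separate culture and 547 and 517 in co-culture, 2.18-fold higher (log2 change 1.12 ± 0.17 SE, limma adjusted p = 3.8e-05). Procr, the endothelial protein C receptor, was 1.78-fold higher and Lrp1, the endocytic receptor that clears urokinase with its inhibitors, 1.42-fold higher. The median log2 change was -0.01 over the 16 and -0.01 over all genes.

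In the list of activators, regulators and receptors of metalloproteinases, which holds the 4 Timp genes and Lrp1 too, 17 of 27 genes entered the fit, and 3 rose and 2 fell. Thbs2, a matricellular protein that binds Mmp2 for clearance, rose by 0.71 ± 0.16 (SE, log2), and Lrp1 and Timp1 were the other 2. Pcolce, which speeds procollagen processing, fell by 0.38 and Itgav, an integrin chain named after its values were seen, fell by 0.25 on the log2 scale. The median of the 17 was -0.05.

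Of the related ADAM proteases, 8 of 16 entered the fit, with 1 risen and 2 fallen and a median of 0.14. Adam19, a membrane sheddase, read 1210 and 1243 in separate culture and 1770 and 1772 in co-culture (log2 change 0.53 ± 0.08 SE, limma adjusted p = 3.1e-05). Adam9 and Adam10, a sheddase of Notch and cadherins, fell by 0.22 each on the log2 scale.

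Among proteoglycans and other matrix substrates, 13 of 26 entered the fit, with 2 risen, 1 fallen and a median of 0.07. Tnc (tenascin C) read 5002 and 4955 in separate culture and 7247 and 7221 in co-culture (log2 change 0.54 ± 0.08 SE, limma adjusted p = 1.9e-05). Vcan, the versican that Adamts4 cuts, rose by 0.37 ± 0.09 (SE, log2), and Bgn (biglycan) fell by 0.40 on the log2 scale. Of the AP-1 and ETS transcription factor genes, 14 of 16 entered the fit, with 4 risen, 1 fallen and a median of 0.11. Ets1 rose by 0.84, Fosl2 by 0.82, Jund by 0.69 and Fosl1 by 0.32 (log2), and Etv5, named after its values were seen, fell by 0.25 on the log2 scale.

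Some markers of cell types also passed in the culture fit, where 3.39% of all genes rose and 5.57% fell. Of 11 macrophage and Kupffer cell genes in the fit, 1 rose, C1qb, a complement component (log2 change 0.96 ± 0.23 SE, limma adjusted p = 0.0081), and 0 fell, with a median of 0.20. The summed signal of all 24 was 2316 and 2756 in separate culture and 2833 and 2641 in co-culture, so the cultures overlapped. Such a sum includes genes under the floor and is weighted to bright probe sets, so it does not measure the share of a cell type. Of 13 mesenchymal genes in the fit, Col5a2, Acta2 and Col3a1, which encode collagen chains and smooth muscle actin, fell by 0.81, 0.66 and 0.52 on the log2 scale. Zeb1, a transcription factor of mesenchymal cells, rose by 0.48 (log2). The median of the 13 was -0.25, and the sum of the list was 41867 and 37787 in separate culture and 38359 and 37068 in co-culture. The part of these shifts in the changes of Timp1, Timp2, Plaur, Adamts4 and Prss23 was not tested. Of the neutrophil list, which includes cells known for Mmp8 and Mmp9, all 12 genes stayed under the floor.

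**Figure D4:**
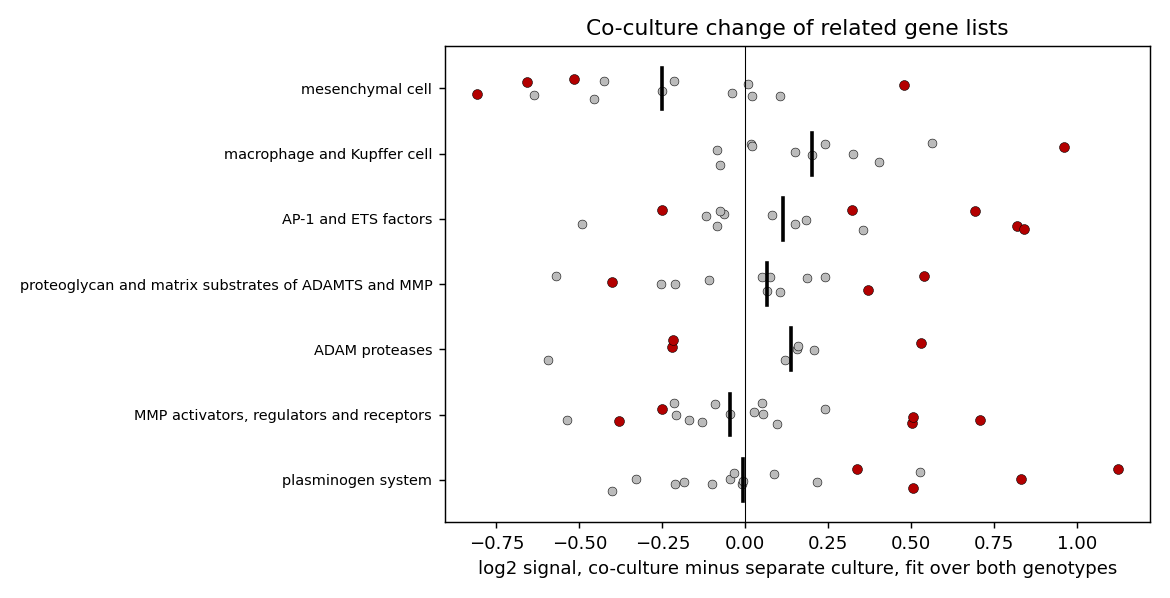
Co-culture minus separate culture, as log2 signal of the fit over both genotypes, for the genes of 7 lists that entered the fit, with 1 point per gene, red where the adjusted p is below 0.05, and the list median as a black bar. Medians lie between -0.25 for mesenchymal genes and 0.20 for macrophage genes, and the point farthest right among the plasminogen genes is Serpinb2 at 1.12.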

How the data were processed

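The authors deposited probe set intensities on a linear scale, 1 value per probe set and array, made with Affymetrix Expression Console 1.4 and MAS5, per the submitters' processing notes. The MAS5 algorithm removes background by zones and brings arrays to a common level, and the mean trimmed by 2% at each tail was 497 or 498 in all 4 arrays. A difference in total RNA per cell is therefore not visible. Of 45037 probe sets, 34945 have 1 gene symbol in the platform annotation, 932 have several and 9160 are not listed in it. A RefSeq table of GRCm38.p6 held 34741 of the 34945 and changed 0 symbols. Each gene was represented by its brightest probe set by mean log2 signal.

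A floor, the median of all values (76.1), was set under the signals before the log2 step. The culture effect was fitted with limma 3.58.1 in R 4.3.3, with genotype as a block, over the 10130 genes whose mean log2 signal lay above the floor. The fit has 1 residual degree of freedom, takes any difference between the genotypes' responses as error, and borrows spread from other genes with an intensity trend (23.7 prior degrees of freedom). P-values were adjusted by Benjamini-Hochberg over all these genes, and a gene was called where the adjusted p was below 0.05. Since the arrays are single samples, p-values measure only the spread between these 4 arrays, and their number limits the precision. Ratios within a genotype compare 1 array with 1 array and were not tested. They cover genes for which either array exceeded the floor, and are read at 2-fold. The calculation was tested on simulated data.

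The members and the gene lists were chosen with earlier results of these data known. All members may be named, and of each list up to 4 called genes with the largest change. Alternatives covered the floor, the probe set summary, the scaling between arrays, the block, the intensity trend and the filter. A fit over single probe sets was added after seeing the data.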

Additional observations from a re-analysis of the deposited data

Results flagged for a closer look

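Of the 15 genes above the floor in all arrays, 5 moved in opposite directions in the genotypes, and none of these differences was tested, since each group had 1 array. Knockout minus wild type, the differences of the log2 co-culture changes were -1.06 for Adamts7, -0.41 for Plat, -0.28 for Mmp24, 0.25 for Mmp23 and 0.091 for Plau. With 1 array a group, opposite signs arise wherever a change is near 0, as for Plau.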

How the results depend on the processing

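Alternatives were set against the counts of the culture fit (3 of the 15 genes higher and 1 lower, and 343 and 564 of all genes). With a floor of 2 times the main one, 0 of the 15 and 0 of all genes passed in either direction, where 759 genes sat at the floor in all arrays and the fit had 0.949 prior degrees of freedom. Without an intensity trend 0 of the 15 passed in either direction, and 36 of all genes rose and 19 fell. Without the genotype block, 172 rose and 224 fell. Quantile normalization gave 2 of the 15 lower and 331 of all genes lower, and the median over probe sets also gave 2 lower, Timp2 being the second in each. With a common median 1105 of all genes fell and 255 rose, against 564 and 343. The fit over single probe sets, added after seeing the data, held 29 probe sets of these genes, of which 4 were higher and 5 lower. Timp2, Adamts4 and Prss23 each gave several of these. Of all 19450 probe sets in that fit, 664 rose and 991 fell. Timp1 and Prss23 kept their call and direction except without the trend and with the higher floor. With the median over probe sets Mmp23 changed by 0.14 and Plau by 0.050 (log2), against -0.08 and -0.01. Without a floor 1 gene was 2-fold higher in wild type, Adamts5. The genotypes' changes then differed 2-fold for 3 genes, Adamts5, Adamts16 and Adamts7, while 0 did under quantile normalization or a common median. Adamts5 and Adamts16 were included only because wild-type co-culture exceeded the floor, which favours a higher wild-type ratio. Their other signals lay under the floor, so these differences are no support. The cause of the shifts between the alternatives was not tested. No paired analysis was possible because the labels give no replicate numbers, other than by genotype, which the fit already has as a block. Signals under the floor limit what can be said of 24 of the 41 genes.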

Other observations

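The lysosomal proteases with their inhibitors and other lists were counted in the culture fit, where 3.39% of all genes rose and 5.57% fell. Of 19 cathepsin and cystatin genes 14 entered the fit, and 0 rose and 1 fell, Cst6, a secreted inhibitor of cysteine proteases, from 1870 and 1914 in separate culture to 1486 and 1464 in co-culture (log2 change -0.36 ± 0.07 SE, limma adjusted p = 0.0019). The median of the 14 was 0.09. Of 23 Adamts-like, astacin and other matrix protease genes 6 entered the fit, and 0 rose and 0 fell, with a median of -0.04. Among 14 genes of liver endothelial and stellate cells, Des (desmin) fell by 0.82 on the log2 scale and Rgs5, a regulator of G protein signalling, rose by 0.62, of 3 in the fit. Of 5 hepatocyte genes and 14 cell cycle genes in the fit, 0 rose and 0 fell.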
